A study of Drosophila melanogaster with 16 samples.

Results

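The 58 odorant receptor genes described here are the genes of the deposited isoform table whose symbol is Or followed by a number and 1 letter, out of 15182 genes in that table. The table names the coreceptor, once called Or83b, as Orco. It falls outside that naming rule and is described beside the 58 members, and Or85e is not analysed here. Chromatin was profiled by immunoprecipitation and sequencing (ChIP-seq) in nuclei of adult Drosophila heads that carried the GFP-tagged nuclear envelope protein unc84-GFP under a GAL4 driver. The 3 driver lines were Tdc2, which labels primarily octopaminergic neurons, OK107, which labels primarily Kenyon cells of the mushroom body, and R57C10, which labels all mature neurons. All 3 lines share the unc84-GFP transgene and digestion of the nuclei with micrococcal nuclease, and none is an unlabelled control. Tdc2 had 2 libraries for H3K27me3 and 1 each for H3K4me3 and H3K27ac, OK107 had 1 for each mark, R57C10 had 2 for each mark, and each line had 1 input, which is the digested chromatin without immunoprecipitation. Libraries of the same group are called early and late by the date tag in their column names. Each library is a mixture of all nuclei its driver labels, so a mark on fewer nuclei and a weaker mark on each nucleus cannot be told apart.

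Odorant receptors are membrane proteins that form odour-gated cation channels with Orco, their obligate coreceptor, in the sensory neurons of the antenna and the maxillary palp. Each such neuron usually expresses a single odorant receptor gene together with Orco, and the other receptor genes are kept silent. Kenyon cells and octopaminergic neurons lie in the brain and are not olfactory sensory neurons. H3K27me3 is the mark of Polycomb repression, while H3K4me3 and H3K27ac mark active promoters, and H3K27ac also marks enhancers. The labels give the tissue as head and the column names call the libraries brain, and neither says whether the antennae and palps stayed on the frozen heads.

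The members were spread over all large chromosome arms of the dm3 assembly, with 10 on 2L, 15 on 2R, 11 on 3L, 14 on 3R and 8 on X. Their gene bodies ran from 1190 to 3378 bp with a median of 1432 bp. Of the members, 16 lay in 7 groups with starts less than 20000 bp apart, namely Or22a and Or22b, Or33a, Or33b and Or33c, Or42a and Or42b, Or59b and Or59c, Or65a, Or65b and Or65c, Or85b and Or85c, and Or94a and Or94b. The bodies of 15 members overlapped another annotated gene, and the promoter windows of 4 overlapped that of another gene. Reads in such stretches cannot be assigned to either gene. By their known place of expression, 6 members were listed as receptors of the maxillary palp, 12 of trichoid and intermediate sensilla and 26 of basiconic and coeloconic sensilla. Another 13, called larval here, were listed as known in the larva and not in adult olfactory neurons, and Or98b was not assigned. The near-identical copies Or19a and Or19b had almost no reads in any library, inputs included, with at most 5 reads for Or19a and at most 33 for Or19b over the gene body. Or19a passed no low-count filter, which left 57 members in most tests, and Or19b was also left out when H3K4me3 was compared between lines.

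H3K27me3 was counted over gene bodies, and H3K4me3 and H3K27ac in 1001 bp windows centred on the annotated start. Without Or19a and Or19b, the members had medians of 234.5 and 200.0 H3K27me3 reads in Tdc2, 1458.5 in OK107 and 1387.5 and 1097.5 in R57C10, so the Tdc2 values are the least precise. Total counts over gene bodies were 7774487 and 8535933 in the Tdc2 H3K27me3 libraries and 36284676 to 54752433 in those of OK107 and R57C10. In H3K27ac 2 of the 3 octopaminergic markers, Tdc2 and Vmat, were highest in the Tdc2 line, and Tbh, the last enzyme of octopamine synthesis, was not (0.12 in Tdc2, -0.25 in OK107, 0.67 and 0.46 in R57C10). Tdc2, a gene of octopamine synthesis, had a log2 ratio to input of 1.05 in Tdc2, 0.13 in OK107 and -0.39 and -0.16 in R57C10. The Kenyon cell gene ey was highest in OK107, with 2.09 there, -0.83 in Tdc2 and -0.31 and -0.30 in R57C10. The other listed Kenyon cell genes (toy, dac, rut, dnc and Fas2) are not described here, so ey does not stand for that list. None of the 5 glial markers had an H3K27ac ratio above 0 in OK107 or R57C10, but 2 of 5 did in Tdc2. Over all genes the Tdc2 libraries stood closer to their input, with a median log2 H3K27me3 ratio of -0.36 in both, -0.78 in OK107 and -0.70 and -0.92 in R57C10. Date tags of R57C10 libraries differed from those of the other lines in every mark, so driver line and date tag cannot be told apart in comparisons with R57C10.

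Odorant receptor genes mostly lay above input in H3K27me3, below it in H3K27ac and, without exception among those tested, below it in H3K4me3. In a fit of all 5 H3K27me3 libraries and the 3 inputs, with driver line as a block (edgeR quasi-likelihood test, adjusted p below 0.05), 39 of 57 members were higher than input and 3 were lower. Across all genes tested 63.4% were called, 30.7% higher and 32.8% lower. The median log2 fold over input was 0.71 for the members and -0.15 for all genes. In single libraries the median log2 ratio of the members was 0.04 and -0.04 in Tdc2, -0.02 in OK107 and 0.14 in both R57C10 libraries, against all-gene medians between -0.92 and -0.36. The ratio was above 0 for 28 to 33 members in each library. Scaled by total count instead of TMM, 13 members were higher and 10 lower, and the median of all genes shifted to -0.77. The 42 calls became 15 without the libraries and input of R57C10, where 22.8% of all genes were called, 27 without those of OK107 (41% of all genes) and 48 without those of Tdc2 (76.4% of all genes).

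**Figure D1:**
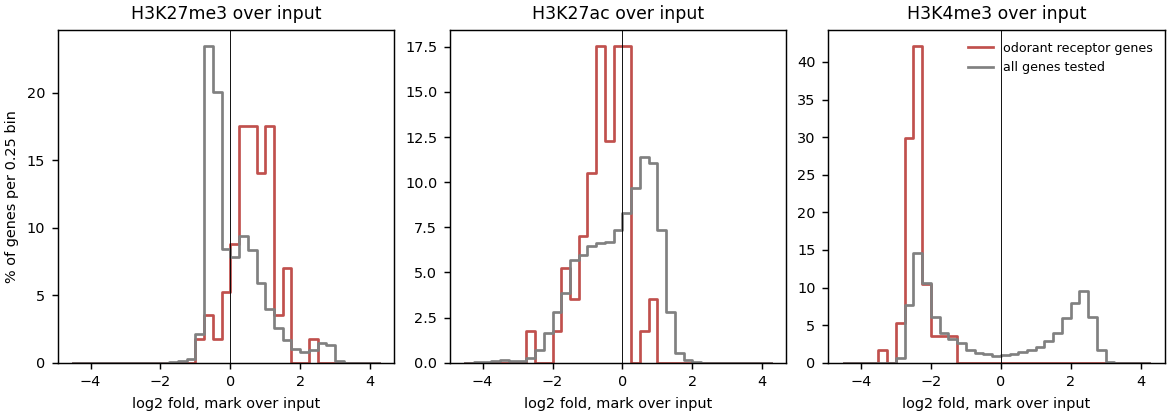
Distribution of the fitted log2 fold of each mark over input, as the percentage of genes per 0.25-wide bin, for the odorant receptor genes (red) and all genes tested (grey). The members lie to the right of the main peak of all genes in H3K27me3 (medians 0.71 and -0.15), to the left in H3K27ac (-0.43 and 0.05) and within the low peak in H3K4me3 (-2.43 and -0.93).

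The most marked member was Or85a, a receptor of basiconic neurons on 3R (4147469 to 4148776 in the deposited table), with 69.0 and 66.2 CPM of H3K27me3 in Tdc2, 101 in OK107 and 94.7 and 119 in R57C10, and inputs of at most 28.6 CPM. All 5 mark libraries lay above every input (log2 fold 2.26 ± 0.16, SE, adjusted p = 4.8e-05). Or85a overlaps Poxm, a Pox family transcription factor gene whose own fold was 2.41, and the reads of both cannot be told apart. The 3 receptor genes at cytological position 59 followed, with Or59c at 1.64 ± 0.18, Or59a at 1.61 ± 0.18 and Or59b at 1.54 ± 0.23. Or94a, a receptor of the larva, had 1.51 ± 0.27. Or59a does not overlap another gene, while Or59b and Or59c lie over CG34372 (1.31) and Or94a over CG43442 (1.23).

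The 3 members below input were Or45b, Or43b and Or71a. Or45b, a larval receptor, had 9.38 and 8.87 CPM of H3K27me3 in Tdc2, 13.6 in OK107 and 13.3 and 10.4 in R57C10, and every input was between 29.1 and 30.8 CPM. All 5 libraries were far below all 3 inputs (log2 fold -0.83 ± 0.14, adjusted p = 0.0017). Or43b, a basiconic receptor gene overlapping lin19, had -0.54, and Or71a, a palp receptor gene overlapping cp309, had -0.53. The cullin gene lin19 and the centrosome gene cp309 were themselves below input, at -0.61 and -0.38. Or2a and Or13a, on X, were the next lowest at -0.32 and -0.12 without being called. The 42 tested members that overlap no other gene had a median of 0.70, and the 15 that do had 1.02.

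Promoter H3K27ac was low at most members but not at all. In the same kind of fit 30 of 57 members were below input and 3 above, against 71.6% of all genes called, 35.7% lower and 35.9% higher. The median log2 fold was -0.43 for members and 0.05 for all genes. The 3 members above input were Or67d (0.99 ± 0.21, adjusted p = 3.7e-05), Or45b (0.86 ± 0.17, adjusted p = 1.6e-05) and Or67c (0.58 ± 0.20, adjusted p = 0.0087). Or67d is the receptor for the male pheromone 11-cis-vaccenyl acetate. Its H3K27ac was 57.3 CPM in Tdc2, 91.3 in OK107 and 146 and 115 in R57C10, with inputs of 46.9, 43.0 and 51.3 CPM in the same order of lines. The mark was above the line's own input in all 4 libraries. Or45b had 131 CPM in Tdc2, 218 in OK107 and 168 and 204 in R57C10, with inputs of 96.1, 106 and 97.5 CPM. It thus had the lowest H3K27me3 and the second highest H3K27ac of the members tested, and was the single member called lower in the first and higher in the second.

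The lowest H3K27ac was at Or67b (-2.56 ± 0.25), followed by Or43b (-1.75), Or85a (-1.69), Or49a (-1.64) and Or47a (-1.61). Or67b had 24.9 CPM in Tdc2, 12.2 in OK107 and 9.88 and 9.002 in R57C10, with inputs of 90.6, 61.4 and 93.1 CPM. All 4 mark libraries were below every input. The Or67b promoter window overlaps that of CG8336, whose own fold was 0.57. Or49a, a receptor for odours of parasitoid wasps, overlaps no gene. The larval members had a median of -0.23 with 5 of 13 lower, the palp members -0.49 with 3 of 6, the trichoid and intermediate members -0.43 with 5 of 11, and the basiconic and coeloconic members -0.62 with 17 of 26.

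**Figure D2:**
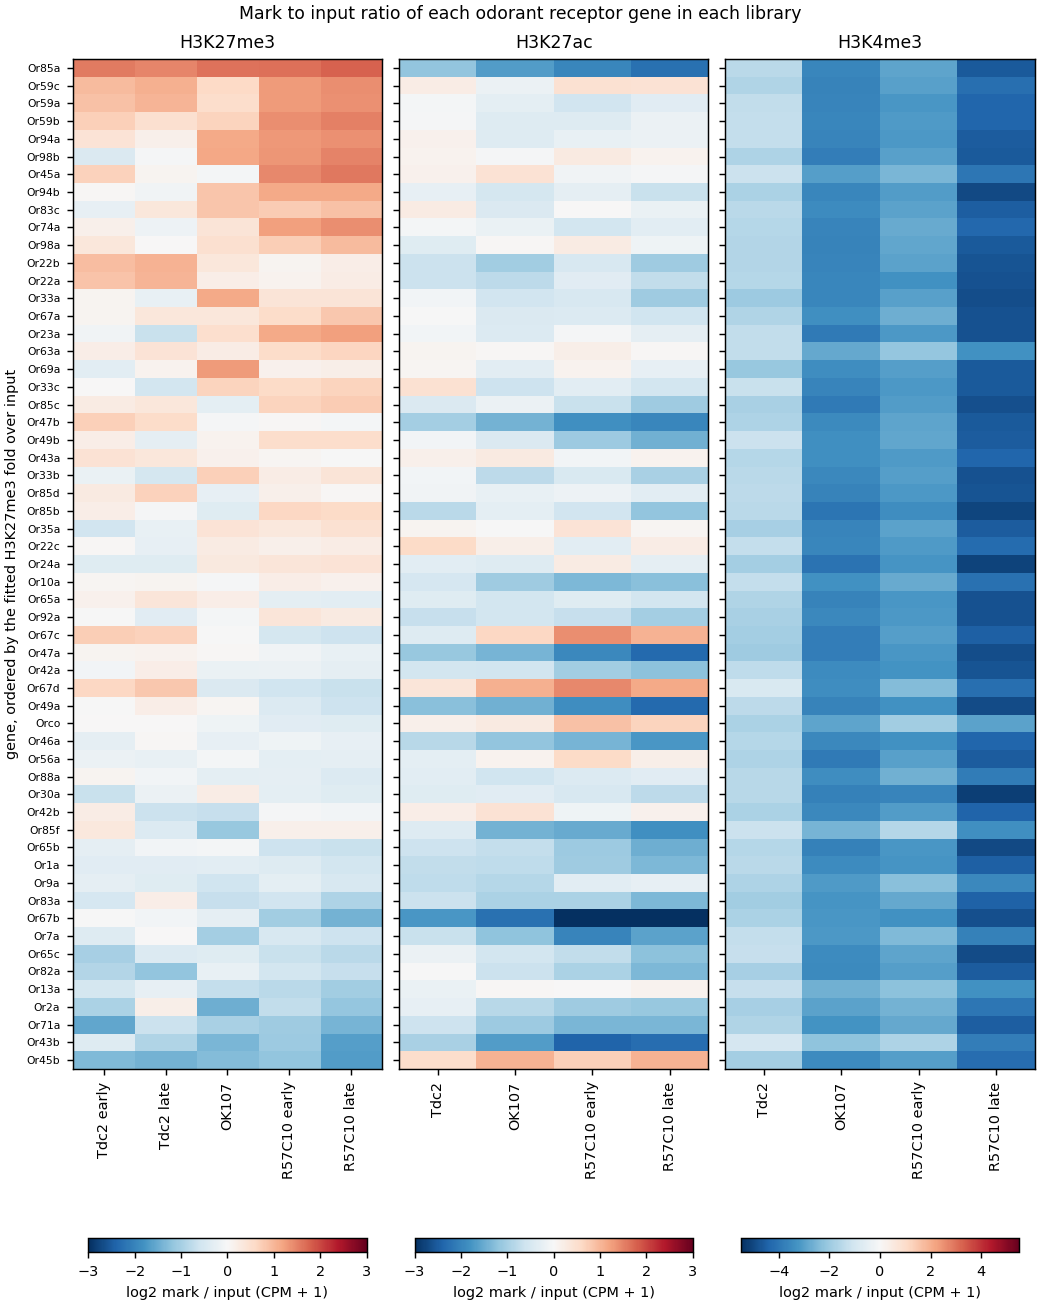
Log2 ratio of mark to input (CPM plus 1) for each odorant receptor gene except Or19a and Or19b, with Orco, in every mark library, ordered by the fitted H3K27me3 fold. Each mark has its own colour scale. Or85a leads H3K27me3, with ratios from 1.47 to 1.78 and a fitted fold of 2.26. Or67d, Or67c and Or45b stand out in H3K27ac, and every H3K4me3 ratio is below 0.

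H3K4me3 was below input at every member tested. All 57 were lower in the fit, with a median log2 fold of -2.43, against 88.4% of all genes called, 48% lower and 40.4% higher, and an all-gene median of -0.93. In single libraries the median ratio of the members was -1.56 in Tdc2, -3.56 in OK107 and -3.01 and -4.57 in R57C10, and 0 of 56 members were above 0 in any of the 4. The all-gene share above 0 was 41.1 to 42.9%. The least negative members were Or43b (-1.26), Or85f (-1.35), Or13a (-1.64), Or63a (-1.68) and Or45a (-1.88), and the most negative were Or19b (-3.33, with 2 to 7 mark reads), Or24a (-2.79), Or30a (-2.78), Or85b (-2.75) and Or47a (-2.70). With both R57C10 libraries and their input left out, 1 member was called, and the share of all genes called was 21.7%, of which 97.5% were higher. The member median there was -2.00.

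H3K27me3 and H3K27ac over input were both called at 36.8% of the members, against 46.1% of all genes. Calls in opposite directions stood at 31.6% of the members and at 40.5% of all genes, so they were not more frequent among the members. Of 57 members, 17 were above input in H3K27me3 and below in H3K27ac, and 21 were above in H3K27me3 with no call in H3K27ac. Another 11 were below in H3K27ac with no call in H3K27me3, and 3 (Or13a, Or19b, Or42b) had no call in either. Or67c was called above input in both marks over the lines together, Or67d in H3K27ac alone, and Or43b and Or71a were below in both. Line by line the marks of Or67c did not coincide. Its log2 H3K27me3 ratio to input was 0.74 and 0.68 in Tdc2, -0.019 in OK107 and -0.53 and -0.63 in R57C10, and its H3K27ac ratio was -0.40 in Tdc2, 0.62 in OK107 and 1.40 and 1.05 in R57C10. Over the 57 members the 2 folds had Pearson's r = 0.19 and Spearman's rho = 0.31, which is a description across genes that share libraries and inputs.

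By chromosome and receptor class, described without a test, the X members had the lower H3K27me3 median and the classes had medians close to each other. On the autosomes 38 of 50 members were above input in H3K27me3 with a median of 0.75, and on X 1 of 7, Or10a, with a median of 0.15. The inputs of Tdc2 over R57C10 had a median log2 ratio of 0.11 at the members on X and -0.03 at those on the autosomes. By class, 5 of 6 palp members (median 0.62), 9 of 13 larval members (0.89), 6 of 11 trichoid and intermediate members (0.65) and 18 of 26 basiconic and coeloconic members (0.67) were above input. Of the other chemoreceptor families, 37 of 62 gustatory receptor genes were above input in H3K27me3 with a median of 0.49, and 45 of 59 ionotropic receptor genes with a median of 0.58.

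The coreceptor gene Orco (CG10609) was above input in the TMM-scaled fits of both H3K27me3 and H3K27ac. By total count its H3K27me3 stood near or below input. Its fitted H3K27me3 fold lay within the quartiles of the members (0.33 and 1.05). Its H3K27me3 was 65.7 and 66.9 CPM in Tdc2, 79.4 in OK107 and 62.4 and 70.6 in R57C10, with inputs of 77.0 to 77.6 CPM. The TMM-scaled fold over input was 0.44 ± 0.11 (adjusted p = 0.0086), while the ratios by total count were 0.00 and 0.01 in Tdc2, -0.14 in OK107 and -0.34 and -0.36 in R57C10. H3K27ac at its promoter was 79.6 CPM in Tdc2, 76.0 in OK107 and 137 and 115 in R57C10, with inputs of 75.5, 63.6 and 70.8 CPM, so both R57C10 libraries were above both other lines. The fold over input was 0.46 ± 0.19 (adjusted p = 0.026), and its H3K4me3 fold was -1.68. Against R57C10, H3K27ac had -0.67 (adjusted p = 0.070) in Tdc2 and -0.73 (adjusted p = 0.083) in OK107, and neither passed. Of the other markers of olfactory sensory neurons, Ir8a and Ir25a, coreceptors of another receptor family, were below input in H3K27ac at -1.54 and -1.39, and Snmp1, a pheromone detection cofactor, had -0.07.

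Between lines, more odorant receptor genes fell than rose in H3K27me3 in octopaminergic neurons set against all neurons. In Tdc2 against R57C10, with 2 libraries each and 2 residual degrees of freedom, 26 of 57 members fell and 5 rose, which is 54.4% of the members, against 19.7% of all genes, 14.7% lower and 4.95% higher. The median log2 fold was -0.51 for members and 0.04 for all genes. Under total count scaling 17 members fell and 7 rose, with medians of -0.15 for members and 0.40 for all genes. With the trend along enrichment removed, the medians were -0.27 for members and 0.01 for all genes. Gustatory receptor genes had 20 lower and 0 higher of 62 (median -0.24), and ionotropic receptor genes 16 lower and 3 higher of 59 (median -0.13). The difference between families was not tested.

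**Figure D3:**
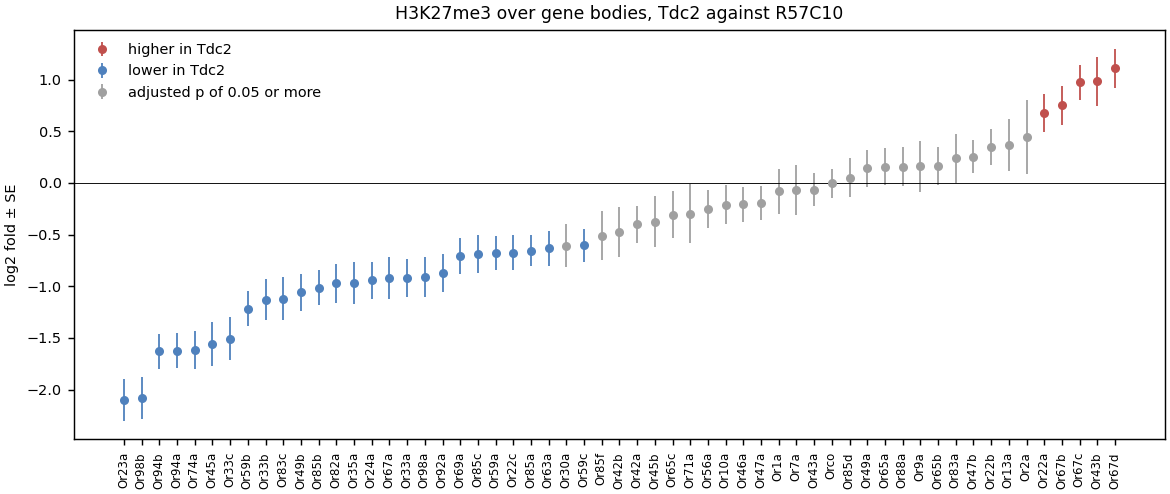
Log2 fold of H3K27me3 in Tdc2 against R57C10 with its standard error for 56 odorant receptor genes and Orco, ordered by fold. Or19b, tested with 5 and 1 reads in Tdc2 and 33 and 25 in R57C10, is not drawn. The 26 genes in blue run from -2.10 to -0.60, the 5 in red from 0.68 to 1.11, and Orco lies at 0.

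Or23a, a receptor of intermediate sensilla on 2L (2654125 to 2655461), fell most. It had 22.6 and 15.1 CPM in Tdc2 and 72.5 and 89.3 CPM in R57C10, with 56.9 CPM in OK107. The log2 ratio to input was -0.095 and -0.67 in Tdc2 and 1.13 and 1.23 in R57C10, and the log2 fold was -2.10 ± 0.20 (adjusted p = 7.0e-05). Prosbeta4R2, a proteasome subunit gene that overlaps it, also fell, by 1.59 on the log2 scale. Or98b (3R, 24177964 to 24179224), which overlaps no gene, had 11.2 and 15.0 CPM in Tdc2, 59.5 in OK107 and 48.0 and 62.3 in R57C10, with inputs of 17.9, 23.1 and 18.2 CPM. The ratio to input was -0.42 and -0.04 in Tdc2, 1.16 in OK107 and 1.32 and 1.49 in R57C10, and the fold against R57C10 was -2.08 ± 0.21 (adjusted p = 7.0e-05).

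The larval receptors Or94b, Or94a, Or74a and Or45a fell by 1.63, 1.62, 1.62 and 1.56 on the log2 scale. Or94a and Or94b overlap CG43442, which also fell, by 1.43. Or45a overlaps CG13739, which fell by 0.62, and reads shared with these genes cannot be told apart. Or94a had 27.05 and 23.05 CPM in Tdc2 and 70.1 and 84.4 CPM in R57C10, where the groups were far apart. Or74a (3L, 17320833 to 17322269), which overlaps no gene, had 26.5 and 21.5 CPM in Tdc2 and 64.1 and 83.3 CPM in R57C10, also without overlap. In all, 9 of 13 larval members fell and 0 rose, with a median of -0.68. Next came Or33c, a palp receptor (-1.51), Or59b, a receptor for acetate esters in basiconic neurons (-1.22), Or33b (-1.13), Or83c (-1.12), Or49b (-1.06) and Or85b (-1.02). Among palp members 2 of 6 fell, among trichoid and intermediate members 2 of 11 fell and 1 rose, and among basiconic and coeloconic members 12 of 26 fell and 4 rose. None of the 7 members tested on X was called.

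The 5 members that rose were Or67d, Or43b, Or67c, Or67b and Or22a. Or67d (3L, 10266304 to 10267724) had 27.8 and 31.9 CPM in Tdc2, 14.2 in OK107 and 13.4 and 14.3 in R57C10. Its log2 ratio to input was 0.63 and 0.81 in Tdc2, -0.43 in OK107 and -0.59 and -0.68 in R57C10, so it was above input in both Tdc2 libraries and below it in the 3 others. Its fold was 1.11 ± 0.19. Or67c (3L, 10236420 to 10237806) starts 29.9 kb from Or67d and had 38.0 and 36.8 CPM in Tdc2, 20.8 in OK107 and 18.5 and 19.6 in R57C10, with a fold of 0.97. Or43b rose by 0.98, Or67b by 0.75 and Or22a, a receptor for fruit esters, by 0.68. The body of Or67b overlaps CG3335 and CG8336, which also rose, by 0.67 and 0.59. That of Or43b overlaps lin19, which had 0.47 without being called. Reads shared with these genes cannot be told apart. Or43b had 27.6 and 19.4 CPM in Tdc2 and 13.6 and 10.2 CPM in R57C10, beside inputs of 42.6 CPM in Tdc2 and 29.3 CPM in R57C10. The ratios of Or43b and Or67b to input were below 0 in all 5 libraries.

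Members with more H3K27me3 in OK107 had lower folds in Tdc2 against R57C10. Over the 57 members the fold had r = -0.55 and rho = -0.58 with the H3K27me3 to input ratio in OK107, a line outside the comparison, and over all 14585 genes r = -0.50. Of the 28 members with the higher OK107 ratio, 21 fell and 1 rose (median fold -0.91), and of the other 29, 5 fell and 4 rose (median -0.21). When the trend of the fold along that ratio was removed over all genes, 12 members were lower and 5 higher, and 6.1% of all genes were called. Or85a had 0.31 after the removal and -0.66 ± 0.15 before. Without the R57C10 late library, 14 members were lower and 3 higher, and 12.6% of all genes were called. Under every alternative of processing with values given here and with each library left out, 13 of the 31 were called the same way, namely Or23a, Or33c, Or45a, Or49b, Or59b, Or74a, Or82a, Or85b, Or94a, Or94b and Or98b on the lower side and Or67c and Or67d on the higher side. Of these, Or49b, Or82a and Or85b were not called when H3K27me3 was counted in the promoter window, an alternative that was run and then withdrawn, and under which more of the 31 lost their call than kept it. Over all genes the Tdc2 libraries also had median ratios nearer 0 (-0.36, against -0.70 and -0.92 in R57C10), and the part of this in the falls was not tested.

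Between Kenyon cells and all neurons few genes of any kind were called in H3K27me3. In OK107 against R57C10, with 1 library against 2, 3 of 57 members fell in H3K27me3 and 0 rose, against 2.19% of all genes, 0.617% lower and 1.57% higher, and the member median was 0.05. The 3 were Or45a (-1.35 ± 0.26, adjusted p = 0.020), Or85b (-1.16 ± 0.21, adjusted p = 0.014) and Or85c (-1.02 ± 0.22, adjusted p = 0.035). Or45a had 25.4 CPM in OK107 and 57.3 and 72.1 CPM in R57C10, and its log2 ratio to input was -0.05 in OK107 and 1.45 and 1.58 in R57C10. CG13739, which overlaps Or45a, had a log2 fold of -0.94 in this comparison. Or85b, a basiconic receptor, had 24.9 CPM in OK107 and 52.2 and 58.7 CPM in R57C10, and Or85c, a larval receptor beside it, had 18.8 CPM in OK107 and 34.3 and 42.0 CPM in R57C10. These 3 genes also fell in Tdc2, a comparison that shares the R57C10 libraries. Single libraries moved this count, with 8 members called without Tdc2 early (6.82% of all genes) and 8 without Tdc2 late (6.8%), which enter only the estimate of spread, and 5 without R57C10 early (5.83%).

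Set against each other, OK107 was higher than Tdc2 in H3K27me3 at 16 of 57 members and lower at 2, against 15.4% of all genes, 14% higher and 1.46% lower, with a member median of 0.29. The higher members included Or98b (2.19), Or33c (1.77), Or23a (1.59), Or69a (1.54), Or94a (1.51), Or94b (1.45), Or33b (1.42), Or33a (1.30), Or83c (1.25), Or82a (1.20), Or22c (1.04) and Or74a (0.97), and the lower were Or67d (-1.08) and Or67c (-0.85). Or69a, a receptor with several isoforms, had 103 CPM in OK107, 29.9 and 41.0 CPM in Tdc2, and 53.1 and 62.6 CPM in R57C10, where OK107 was above the 4 others. Its fold of 0.83 against R57C10 was the largest positive of the members there but did not pass. This comparison shares the Tdc2 libraries with that of Tdc2 against R57C10, and with the trend along enrichment removed 5 members were higher and 3 lower.

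Promoter H3K27ac in Tdc2 against R57C10, with 1 library against 2 and 1 residual degree of freedom, was higher at 11 of 57 members and lower at 3. Of all genes 27.8% were called, 20.2% higher and 7.68% lower, and of the members 24.6%. The 3 lower were Or67c, Or67d and Or56a. Or67c had 77.2 CPM in Tdc2, 127 in OK107 and 234 and 179.8 in R57C10, so Tdc2 was lowest (-1.42 ± 0.27, adjusted p = 7.1e-06). Or67d followed at -1.19 ± 0.30 (adjusted p = 9.0e-04) and Or56a, the receptor for the microbial odour geosmin, at -0.71 ± 0.29 (adjusted p = 0.047). The higher members were Or43b (1.52), Or67b (1.39), Or85f (1.21), Or7a (1.00), Or10a (0.94), Or2a (0.83), Or47b (0.83), Or82a (0.77), Or85a (0.77), Or47a (0.74) and Or46a (0.70). The ratio to input of each was below 0 in all 4 libraries, as for Or43b with 54.0 CPM in Tdc2 and 18.4 and 19.4 CPM in R57C10 beside inputs of 113 CPM in Tdc2 and 96.8 CPM in R57C10. With the trend along enrichment removed, 1 member was called, Or67c (-1.01, adjusted p = 0.024), and with DESeq2 6 were.

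In OK107 against R57C10, 1 member was called in H3K27ac, against 10.5% of all genes, 7.42% higher and 3.07% lower. Or7a, a basiconic receptor, had 33.8 CPM in OK107 and 16.2 and 20.6 CPM in R57C10, beside inputs of 79.1 CPM in OK107 and 64.4 CPM in R57C10 (0.88 ± 0.28, adjusted p = 0.025). It was not called with DESeq2 (adjusted p = 0.201). OK107 and Tdc2, with 1 library each, were set side by side without a test, and OK107 minus Tdc2 had a median log2 difference of -0.12 over 57 members in H3K27ac, from -1.09 to 0.73, and the difference of R57C10 early minus late was 0.26.

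**Figure D4:**
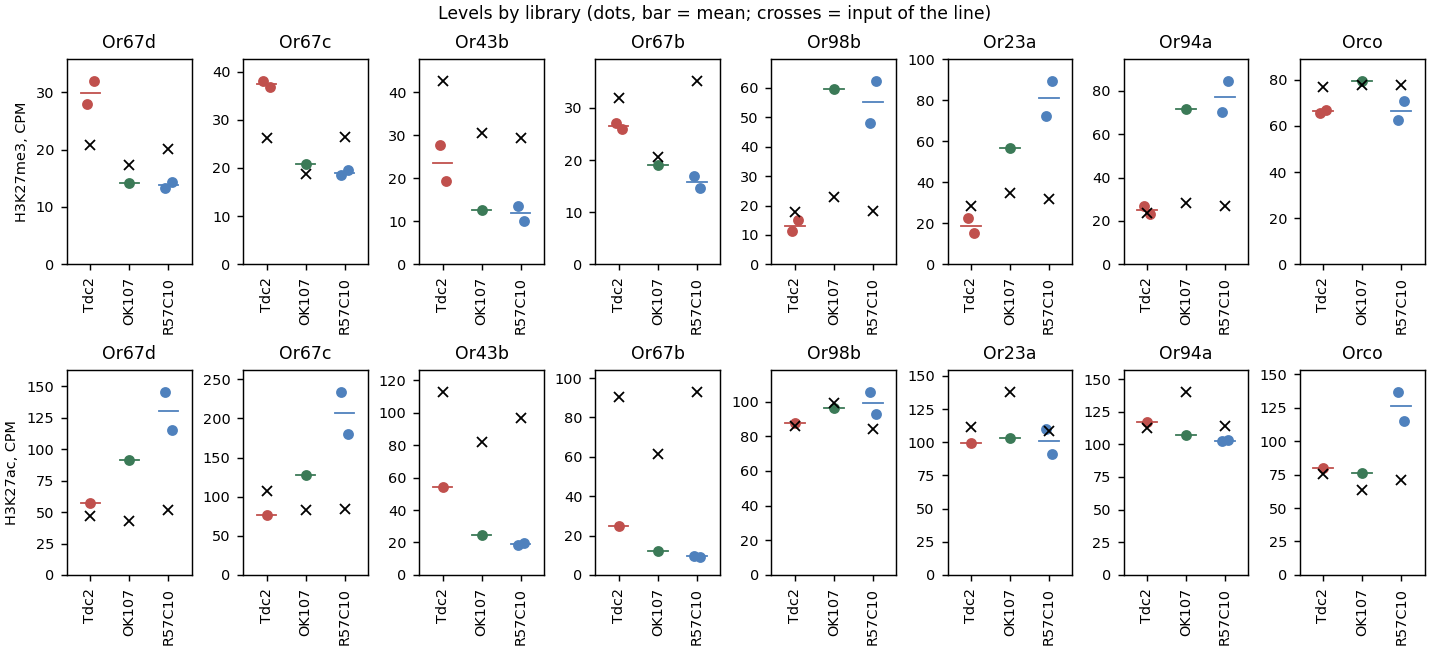
CPM of H3K27me3 over the gene body (top) and of H3K27ac at the promoter (bottom) for 7 odorant receptor genes and Orco, by driver line. Dots are libraries, bars the mean of a line's libraries, crosses the line's input. Or67d and Or67c are high in Tdc2 in H3K27me3 and low there in H3K27ac, while Or98b, Or23a and Or94a are low in Tdc2 in H3K27me3 and differ little in H3K27ac.

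In Tdc2 against R57C10, 6 of 57 members (10.5%) were called in both H3K27me3 and H3K27ac, against 6.02% of all genes. Or67c and Or67d were higher in H3K27me3 and lower in H3K27ac. Or82a and Or85a were lower in H3K27me3 and higher in H3K27ac, and Or43b and Or67b were higher in both. Of the 26 members lower in H3K27me3, 24 (92.3%) had no call in H3K27ac and 0 were lower, while of all genes lower in H3K27me3 68.9% had no call in H3K27ac. The difference between these shares was not tested. At Or98b, H3K27ac was 87.8 CPM in Tdc2 and 106 and 92.7 CPM in R57C10 (-0.18 ± 0.29). At Or23a it was 99.7 CPM in Tdc2 and 110.3 and 91.4 CPM in R57C10 (-0.02 ± 0.28), with Tdc2 between both R57C10 libraries.

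H3K4me3 called no odorant receptor gene between lines. In Tdc2 against R57C10, all 56 members tested had a positive fold, with a median of 1.68 and a range of 0.69 to 2.29, against an all-gene median of 0.50 and 0% of all genes called. At an unadjusted p below 0.05 there were 0 members and 655 of all genes with edgeR and TMM scaling, 17 members with RLE scaling (median 1.10) and 30 members with DESeq2 (median 1.10), and none of these fits called a member after adjustment. The Tdc2 level of Or67d, for example, was 19.9 CPM, against 8.34 and 2.54 CPM in R57C10, with inputs of 47.4 CPM in Tdc2 and 51.9 CPM in R57C10. The R57C10 libraries themselves differed by a median of 1.17 (early minus late) at these members, with all 56 higher in the early library. Gustatory receptor genes had a median of 1.63 and ionotropic receptor genes 1.76, and glial markers, with 0 of 5 above input, had median ratios of -0.87 in Tdc2 and -2.53 and -3.66 in R57C10. With the trend along enrichment removed the member median was -0.02. In OK107 against R57C10 0 members were called by edgeR, 0 by DESeq2 and 0 at an unadjusted p below 0.05, with a median of 0.16, against 0.00679% of all genes called. Set side by side without a test, OK107 minus Tdc2 was negative at all 56 members (median -1.43).

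Members of 4 clusters were called together in H3K27me3 in Tdc2 against R57C10. With the trend along enrichment removed, this held only for Or94a (-0.83) and Or94b (-0.97). Or33a (-0.13), Or33b (-0.52), Or59c (-0.06) and Or85c (-0.63) then lost their call. Or33c (-0.92), Or59b (-0.63) and Or85b (-0.98) kept it. In the cluster of Or33a, Or33b and Or33c on 2L, all 3 fell in Tdc2 against R57C10, by 0.92, 1.13 and 1.51 on the log2 scale. Or33a had 21.5 and 17.4 CPM in Tdc2, 47.8 in OK107 and 34.1 and 39.5 in R57C10. Or33b had 16.6 and 13.2 CPM in Tdc2 and 28.6 and 36.6 CPM in R57C10, and Or33c had 19.6 and 13.2 CPM in Tdc2 and 41.9 and 51.6 CPM in R57C10. In the cluster of Or65a, Or65b and Or65c on 3L, which is expressed in trichoid neurons, 0 of 3 members were called in any comparison between lines, with a median of 0.16 in Tdc2 against R57C10. Both genes fell in the pairs Or59b and Or59c, Or85b and Or85c, and Or94a and Or94b, 1 of 2 rose in Or22a and Or22b, and neither was called in Or42a and Or42b. Or59b and Or59c both overlap CG34372, which fell by 0.75, and Or94a and Or94b both overlap CG43442, which fell by 1.43. Among all clustered members 9 of 16 fell and 1 rose, and among single ones 17 of 41 fell and 4 rose.

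In 10 kb windows with a step of 5 kb, where only OK107 and the merged Tdc2 libraries were counted and ratios were of CPM plus 1, the windows at the members had a median log2 H3K27me3 ratio of -0.22 in Tdc2 and -0.48 in OK107. Windows centred 20 to 50 kb away had -0.30 in Tdc2 and -0.64 in OK107, and all 26777 windows with enough input had -0.26 in Tdc2 and -0.59 in OK107. The windows at the gene were above its surroundings at 32 of 58 members in Tdc2 and 38 of 58 in OK107. The median difference was 0.05 in Tdc2 and 0.15 in OK107. Or19a and Or19b are among the 58, and clustered members such as Or33a, Or33b and Or33c share the same windows. These counts are therefore not of independent loci, and no such share is given for all genes. At Or98b the ratio was 0.12 in Tdc2 and 0.85 in OK107, at Or94a -0.09 in Tdc2 and 0.64 in OK107, and at Or33b -0.34 in Tdc2 and 0.45 in OK107. At Or67d it was 0.56 in Tdc2 and -0.77 in OK107, with surroundings at 0.37 in Tdc2 and -0.91 in OK107. The windows 20 to 50 kb from Or67d, which include Or67c, were thus also higher in Tdc2 than in OK107.

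**Figure D5:**
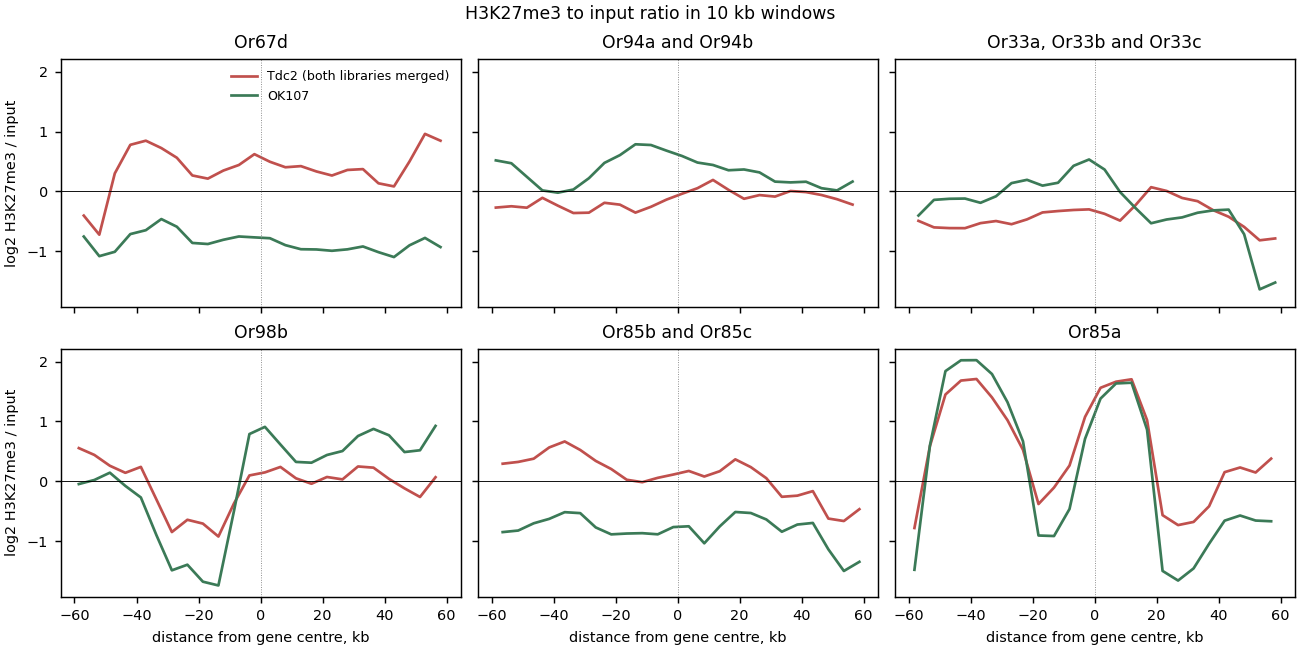
Log2 ratio of H3K27me3 to input in 10 kb windows against distance from the gene centre for 6 odorant receptor loci, in Tdc2 (red, both libraries merged) and OK107 (green). OK107 is above Tdc2 at the centre of the Or94a, Or33b and Or98b loci, and Tdc2 is above OK107 across the Or67d and Or85b loci. Ratios are by total count, and the median of all windows was also higher in Tdc2 (-0.26) than in OK107 (-0.59). Neither Or85b nor Or85c was called in OK107 against Tdc2. At Or85a both lines are high beside the gene, with 1.648 in OK107 and 1.705 in Tdc2 at 11.9 kb. Both are highest in another stretch, with 2.025 in OK107 and 1.710 in Tdc2 at -38.1 kb.

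Of 13 regulator genes known to control the identity of olfactory neurons or their receptor choice, 6 were above input in H3K27me3 and 3 below, with lozenge (lz) at 3.05, Fer1 at 2.90, ato at 2.86, sim at 2.83, acj6 at 2.65 and pdm3 at 1.57. All of these except pdm3 lay above Or85a, the highest odorant receptor gene at 2.26. Of all genes tested, 30.7% were above input in H3K27me3 and 32.8% below. In Tdc2 against R57C10, 7 of 13 regulators fell in H3K27me3 and 1 rose, against 14.7% of all genes lower and 4.95% higher. Over all 14585 genes this fold was lower where the H3K27me3 to input ratio in OK107 was higher (r = -0.50). Regulator folds with that trend removed are not given here, and its part in these falls was not tested. The POU factor gene acj6, required for the expression of many odorant receptors, had -0.82 ± 0.16, pdm3, its relative, -0.95 ± 0.15, ato -1.49 ± 0.16, and onecut, a homeobox gene, rose by 0.96 ± 0.15. In H3K27ac, acj6 (-1.74), onecut (-1.10), lz (-1.06) and sim (-0.93) were lower in OK107 than in R57C10. Of 11 other genes of odour detection, 3 were above input in H3K27me3 and 1 was below, beside the same shares of all genes. In Tdc2 against R57C10 the carbon dioxide receptor gene Gr21a fell (-1.13 ± 0.14), and Snmp1 (0.60 ± 0.17) and the G protein gene Galpha49B (0.69 ± 0.15) rose. Gr21a had 42.7 and 37.6 CPM in Tdc2, 158 in OK107 and 84.9 and 90.9 in R57C10.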

How the data were processed

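The counts deposited by the authors were whole reads per annotated isoform, without normalization, over gene bodies for H3K27me3 and in promoter windows for the other marks, with positions on dm3, and per 10 kb window. Per the submitters' processing notes, bases were called with CASAVA 1.8, reads aligned with Bowtie 0.12.7 and counted with bedtools 2.15. How reads with several matches were treated is not given in the sources used here. Of 25701 isoform entries 25406 had a gene, the others held 0.463 to 1.16% of counts, and 61 other sample columns were not used. The isoform with the largest sum over a mark's libraries stood for its gene.

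Counts were fitted with edgeR 4.0.16 in R 4.3.3 (quasi-likelihood, TMM scaling, default low-count filter), with Benjamini-Hochberg adjustment over all genes tested and a threshold of 0.05. Each mark's libraries of all lines entered 1 model, so single libraries are assumed to vary like replicated ones. Levels are TMM-scaled CPM for marks and CPM by total count for inputs. Ratios of single libraries use CPM by total count plus a pseudocount of 1.0. Fits over input had 3 or 4 residual degrees of freedom. Windows with under 100 input reads in either line were left out. The labels do not say whether replicates were separate preparations, so p-values measure only the spread between these libraries, which may be technical. Fits were tested on simulated data.

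Members, receptor classes and other gene lists were chosen with earlier results of these data known. Named genes were Orco, called members with libraries that do not overlap (up to 12 per direction), the 5 highest and 5 lowest members over input per mark, clusters of 3 or more members, and up to 6 genes of each other list. Or2a, Or13a, onecut and the genes named for windows, overlaps, classes or pairs of marks were chosen after their values were seen. Alternatives tried were DESeq2 1.42.0, scaling by RLE or by total count, no filter, another isoform, removal of the trend of the fold along enrichment (loess, span 0.3), and leaving out libraries.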

Additional observations from a re-analysis of the deposited data

How the results depend on the processing

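For H3K27me3 in Tdc2 against R57C10, 31 members were called, 17 with the trend along enrichment removed and 17 to 35 with a library left out, 17 being without R57C10 late. Total count scaling gave 7 higher and 17 lower and moved the median of all genes to 0.40, with 74.2% of all calls higher in place of 25.2%. OK107 against R57C10 had 3, with 5 under total count scaling or DESeq2 and 3 to 8 with a library left out. OK107 against Tdc2 had 18, with 8 when the trend was removed and 18 to 24 with a library left out. Total count scaling gave 11 higher and 6 lower there and moved the median of all genes to -0.43. H3K27me3 over input had 42, with 23 under total count scaling (13 higher and 10 lower, all-gene median -0.77, member median 0.09), 15 without the R57C10 line, 27 without the OK107 line and 38 to 44 with a library left out. H3K4me3 over input had 57, and 1 without the R57C10 line. H3K27ac in OK107 against R57C10 had 1, with 0 under DESeq2, 2 with the isoform of largest input, and with the trend removed 1 that was another gene. H3K27ac in Tdc2 against R57C10 had 14, with 6 under DESeq2, 1 with the trend removed and 18, of which 16 were higher, under total count scaling. Removing the trend turned Or69a (0.14) and Or85a (0.31) in Tdc2 against R57C10, Or85a (-0.36) in OK107 against Tdc2, and Or46a (-0.09), Or47a (-0.16), Or47b (-0.08) and Or85a (-0.28) in H3K27ac. Total count scaling turned Or42a (-0.12), Or46a (-0.18), Or47a (-0.02), Or49a (-0.15), Or56a (-0.19) and Or88a (-0.21) in H3K27me3 over input. The causes of these changes were not tested, and removing the trend takes out by construction any real difference that runs along it. Leaving out a whole line was chosen after seeing the data. So was counting H3K27me3 in the promoter window in place of the gene body, which was run and then withdrawn, because both sets of columns could be matched to groups but not to single samples. It called fewer members in each comparison between lines and over input. More members lost their call than kept it in Tdc2 against R57C10 and in OK107 against Tdc2, and none was called in OK107 against R57C10. Its values are not given here. Leaving out an R57C10 library between lines in H3K4me3 or H3K27ac leaves 0 residual degrees of freedom and was not run. No paired analysis was possible because the columns carry no replicate numbers.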
